A study of Mus musculus with 20 samples.

Results

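The core transcription factor network of the mouse oocyte was followed through 7 genes, namely Figla, Lhx8, Nobox, Sohlh1, Sohlh2, Taf4b and Tbpl2, taken as a list of symbols and matched to Ensembl identifiers. All 7 were found among the 49585 genes of the count tables. RNA was sequenced from whole ovaries of B6D2F1 mice in 20 libraries, to compare ovaries without Figla or without Lhx8 with their controls around birth. The groups were Figla knockout ovaries at embryonic day 18.5 (E18.5, 4 libraries) with 4 control libraries, Figla knockout ovaries on the day of birth (P0, 3 libraries) with 3 control libraries, and Lhx8 knockout ovaries at P0 (3 libraries) with 3 control libraries. Where the genotype field names a control, it says heterozygous for the deleted gene, whereas in the Lhx8 set the library names say wild type. The word control covers both. The genotype field goes with the title, and for many libraries it names the opposite genotype to the library name, as given below. The labels do not say which exons were deleted or whether ovaries of several animals were pooled.

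The factors belong to 3 protein classes. Figla, Sohlh1 and Sohlh2 encode basic helix-loop-helix proteins, which bind the E-box (the letters CANNTG) as dimers. Nobox and Lhx8 encode homeodomain proteins, and LHX8 also has LIM domains that bind the adaptor LDB1. Taf4b and Tbpl2 encode gonad-enriched forms of parts of the general machinery that starts transcription at promoters: TAF4B is a subunit of TFIID, and TBPL2 is a relative of the TATA-binding protein. In mice, Sohlh1, Sohlh2, Nobox, Lhx8 and Figla are each required for primordial follicles to form or for their oocytes to survive and grow. FIGLA was first known as the activator of the zona pellucida genes.

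Figla (ENSMUSG00000030001) lies on the plus strand of chromosome 6, 86016171 to 86020996 (GRCm38). Nobox (ENSMUSG00000029736) lies on the same chromosome, on the minus strand, 43303674 to 43309554. Sohlh1 (ENSMUSG00000059625) and Tbpl2 (ENSMUSG00000061809) both lie on the minus strand of chromosome 2, 25842995 to 25847248 and 24071721 to 24096595. Lhx8 (ENSMUSG00000096225) is on the minus strand of chromosome 3, 154306294 to 154330659, and Sohlh2 (ENSMUSG00000027794) is on its plus strand, 55182028 to 55209957. The identifier of Taf4b is ENSMUSG00000054321. No other annotated gene overlapped any of the 7, so their counts hold no reads of an annotated antisense neighbour.

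The stretch of 300 bases around the transcription start, 250 before it and 50 after, was read from RefSeq (GRCm38.p6) for 6 members. No window of Taf4b was read. The windows of 4 members are shown, since Nobox and Tbpl2 had almost no reads in ovaries without Figla, while Lhx8 and Sohlh1 kept a large part of theirs. Each is written 5′ to 3′ on the strand of its gene, with every match to the E-box CANNTG in capitals. The windows are chr6:43309505-43309804 (minus strand) for Nobox, chr2:24096546-24096845 (minus strand) for Tbpl2, chr3:154330511-154330810 (minus strand) for Lhx8 and chr2:25847199-25847498 (minus strand) for Sohlh1.
Nobox: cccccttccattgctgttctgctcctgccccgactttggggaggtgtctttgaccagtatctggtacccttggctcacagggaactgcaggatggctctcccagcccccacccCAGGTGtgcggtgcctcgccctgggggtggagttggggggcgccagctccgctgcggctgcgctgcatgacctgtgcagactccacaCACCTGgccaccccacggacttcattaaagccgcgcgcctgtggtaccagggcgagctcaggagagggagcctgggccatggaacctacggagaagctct
Tbpl2: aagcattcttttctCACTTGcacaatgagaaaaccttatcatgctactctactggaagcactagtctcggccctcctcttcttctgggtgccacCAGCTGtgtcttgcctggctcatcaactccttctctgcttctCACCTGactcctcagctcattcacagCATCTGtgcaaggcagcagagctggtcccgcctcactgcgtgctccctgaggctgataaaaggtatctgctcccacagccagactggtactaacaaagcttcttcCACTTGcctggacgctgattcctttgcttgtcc
Lhx8: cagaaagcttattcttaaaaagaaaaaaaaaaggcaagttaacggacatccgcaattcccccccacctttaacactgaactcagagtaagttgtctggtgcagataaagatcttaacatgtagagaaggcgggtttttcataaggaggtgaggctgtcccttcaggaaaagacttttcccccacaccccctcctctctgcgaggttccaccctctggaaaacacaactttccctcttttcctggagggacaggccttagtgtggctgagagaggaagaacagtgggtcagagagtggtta
Sohlh1: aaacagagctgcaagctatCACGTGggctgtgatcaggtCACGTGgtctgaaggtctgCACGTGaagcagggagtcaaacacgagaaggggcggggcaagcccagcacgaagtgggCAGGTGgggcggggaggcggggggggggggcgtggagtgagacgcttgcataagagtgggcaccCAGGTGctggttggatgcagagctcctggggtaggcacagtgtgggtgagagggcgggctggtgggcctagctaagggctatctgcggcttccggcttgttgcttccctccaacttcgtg

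The Nobox window held 2 E-boxes, a CAGGTG that began at -137 from the start site and a CACCTG, the same letters read on the other strand, at -50. Tbpl2 and Sohlh1 had 5 E-boxes each, and Lhx8 had 0. Figla and Sohlh2, whose windows are not shown, had 4 and 1. Of 32851 RefSeq promoter windows of the same length, 72.3% had at least 1 E-box, 39.6% at least 2 and 2.1% at least 5. In Sohlh1, 3 of the 5 were CACGTG, at -231, -211 and -192, and 0.0883% of all windows had 3 or more of these. CAGGTG or CACCTG occurred at least 2 times in 2.88% of all windows, among them Nobox and Sohlh1 with 2 each and Figla with 3. Each of these letter strings is also a CANNTG, and both strands were searched. None of the 6 member windows held letters typical of homeodomain sites, namely TAATTG (in 8% of all windows), TAATTA (in 5.29%) or TGATTG (in 14%), and none held the TATA box letters TATAAA (in 13.6%). A match describes the letters and does not show a binding site. For Figla the RefSeq start lay 1020 bases from the start of the gene in the annotation used for counting, so its window may not be the start used in these ovaries.

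Total counts ran from 5583392 to 13408022 in the Figla libraries and from 8297204 to 9978350 in the Lhx8 libraries. Title and genotype field disagreed with library name in 6 of the 14 Figla libraries and in all 6 Lhx8 libraries. The library names were followed here, and going by titles instead would reverse every Lhx8 result. Libraries 1 and 2 of each E18.5 genotype were near-identical and entered as a single summed sample, leaving 3 per genotype. In both E18.5 genotypes the sample numbered 3 was the lowest for Lhx8 and Sohlh1, as described below. The E18.5 fold changes of the members are also given without these 2 samples. Over all genes the samples numbered 3 did not stand apart. Between knockout libraries, chi-square per degree of freedom was 61.3 (1 and 3), 46.2 (1 and 4) and 17.0 (3 and 4). Between control libraries it was 34.5, 32 and 21.2 in the same order. Levels are given as CPM, the read count of a gene scaled by the total count of its library.

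**Figure D1:**
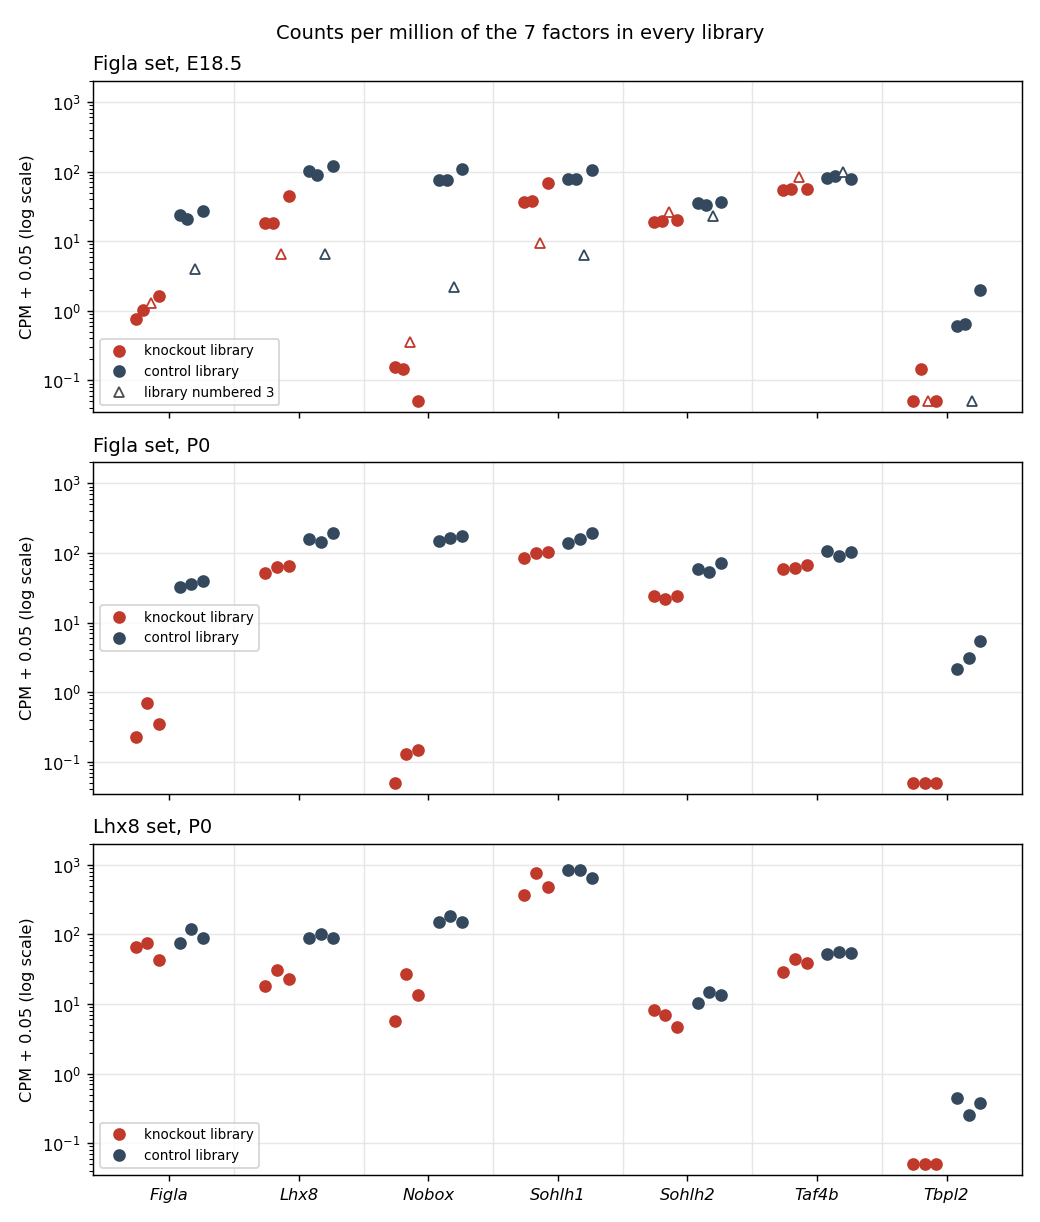
CPM of the 7 factors in every library, on a log axis after adding 0.05 CPM, with knockout libraries in red to the left of control libraries in blue. At P0 all 7 factors were lower in each Figla knockout library than in each control library, and Nobox and Tbpl2 lay at the bottom of the axis in the knockouts. The open triangles are the E18.5 libraries numbered 3.

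Figla itself came first as a check of the labels. Before birth Figla had 0.722, 0.961, 1.24 and 1.56 CPM in knockout libraries 1 to 4, against 23.9, 20.5, 3.94 and 27.2 CPM in control libraries 1 to 4. At P0 it stood at 0.175, 0.647 and 0.295 CPM in Figla knockouts, against 32.5, 35.5 and 39.5 CPM in controls. Every Figla knockout library was below every control library of its age, in the order the library names give. The remaining signal was small but above 0, with 13 counts over the 3 knockout libraries at P0 against 1304 in controls, and the labels do not say whether a stretch of the transcript is still made. In the Lhx8 set, Lhx8 stood at 18.1, 31.0 and 23.0 CPM in knockouts, against 90.0, 101 and 89.4 CPM in controls. The knockouts kept 25.7% of the control mean, and since these libraries count only the 3' end of a transcript, reads from a partly deleted gene cannot be told apart from full transcripts.

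At P0 the loss of Figla was accompanied by lower levels of all 6 other factors, by very different amounts. The homeobox gene Nobox and the TBP relative Tbpl2 had almost no reads left. Lhx8 and Sohlh2 fell to 36.0% and 38.1% of the control mean. Sohlh1 and Taf4b fell to 58.4% and 62.2% of it. In a bulk ovary, fewer cells of a type and less RNA per cell cannot be told apart.

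Nobox, which encodes a homeodomain activator of oocyte genes, had 0, 0.0809 and 0.0984 CPM in Figla knockouts at P0, which are 0, 1 and 1 reads. In controls it had 150.3, 162.8 and 173.0 CPM. The groups lay far apart, and the difference was the largest by fitted fold change among the 7 (log2 fold change -11.21, SE 0.26, adjusted p = 6.39e-09 by edgeR's quasi-likelihood test over all genes). As a ratio of counts over depth, controls had 2757 times the knockout level, with a 95% counting interval of 763 to 22770. That ratio was 1831 without knockout 1, the library with no Nobox read.

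Tbpl2, which stands in for the TATA-binding protein in growing oocytes, had no read in any of the 3 Figla knockout libraries. Controls had 2.10, 3.02 and 5.37 CPM, or 25, 33 and 72 reads. The knockouts were at least 40.6-fold lower, taking 3 counts over the group as the floor that no reads allow, and the adjusted p was 0.000645. The bound was 25.8 without knockout 2, by construction, since fewer reads were then counted. Tbpl2 was also the least abundant of the 7 in controls, so its loss was measured on few reads.

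Lhx8, a LIM homeobox gene needed in early follicles, stood at 52.2, 62.7 and 65.6 CPM in Figla knockouts, against 160.8, 144.0 and 196.4 CPM in controls. Its log2 fold change was -1.50 (SE 0.14, adjusted p = 5.42e-05). Sohlh2, a helix-loop-helix gene of premeiotic germ cells and early oocytes, stood at 24.4, 22.0 and 23.7 CPM in Figla knockouts, against 59.1, 53.0 and 71.8 CPM in controls. Its log2 fold change was -1.41 (SE 0.14, adjusted p = 0.000111). Both genes had groups that were separated by more than their spread, and the 3 knockout libraries lay closer together than the controls.

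Sohlh1, the helix-loop-helix partner of Sohlh2, stood at 85.7, 98.9 and 102.6 CPM in Figla knockouts and at 138.8, 159.0 and 194.0 CPM in controls (log2 fold change -0.80, SE 0.14, adjusted p = 0.00282). Taf4b, the gonadal TFIID subunit, stood at 58.3, 61.0 and 67.0 CPM in Figla knockouts and at 108.4, 89.5 and 101.6 CPM in controls (log2 fold change -0.71, SE 0.11, adjusted p = 0.00169). These were the smallest changes of the 7, yet no knockout library reached the lowest control.

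In all, 7 of 7 members passed the test as lower at P0, where 10.9% of the 17321 genes tested did; 5.12% passed as higher, 16.0% in either direction, and 30.8% had an unadjusted p under 0.05. Groups did not overlap, knockouts below controls, for 7 of 7 members and for 19.2% of all genes tested. Figla's own fall is the deletion and is part of that count, and Figla, Nobox and Tbpl2 had enough reads to be tested only through the controls. When the P0 samples were fitted in 1 model with the E18.5 samples, the calls of Lhx8 (adjusted p = 0.242) and Sohlh1 (adjusted p = 0.547) were lost, and 5 members stayed called.

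**Figure D2:**
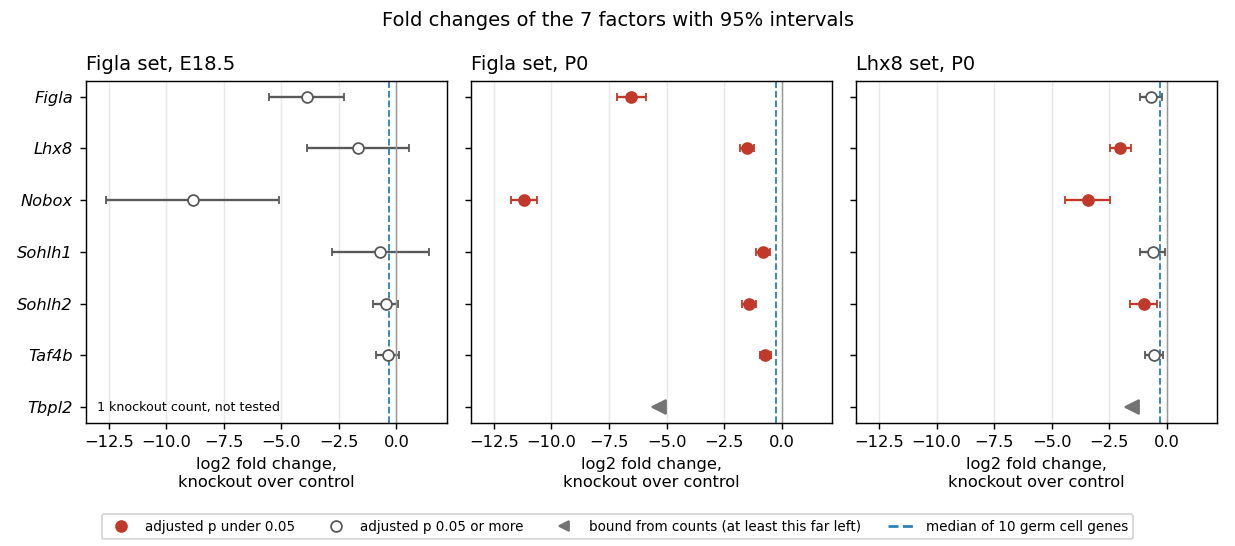
Log2 fold change of each factor, knockout over control, with 95% intervals from edgeR, in the 3 comparisons. Filled points passed an adjusted p of 0.05, arrowheads for Tbpl2 mark the count bound, and the dashed line is the median of 10 germ cell genes. Nobox was the factor with the lowest fold change in each panel among those with a fitted value.

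General germ cell genes also differed at P0 and are given beside these values. Of 10 such genes tested, 4 passed as lower in Figla knockouts, namely Ddx4 (-0.84), Sycp3 (-0.88), Hormad1 (-0.83) and Dazl (-0.45, all log2), and 0 passed as higher. Their median log2 fold change was -0.26, against 0.02 over all genes. The sum of the 10 genes ran from 1529 to 1636 CPM in Figla knockouts and from 1533 to 2070 CPM in controls, so the ranges overlapped. Ddx4, an RNA helicase of germ cells, and Sycp3, a protein of meiotic chromosome axes, had fold changes about the size of those of Sohlh1 and Taf4b. The changes of Sohlh1 and Taf4b relative to the number of germ cells were not tested. Among somatic markers at P0, the 8 pregranulosa genes summed to 2031 to 2100 CPM in Figla knockouts and 1168 to 1623 CPM in controls, with 2 of 8 higher (Fst 0.87 and Kitl 0.79, log2) and 0 lower. The 4 endothelial genes summed to 386 to 438 CPM in knockouts and 221 to 321 CPM in controls, with 3 of 4 higher (Cdh5, Tie1 and Kdr). The macrophage gene Csf1r was higher (0.46, 1 of 3 tested), and none of the Sertoli, steroidogenic, erythroid or mesonephric duct genes tested passed. Their part in the members' results was not tested.

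In ovaries without Lhx8 at P0, all 6 members that could be tested had fitted values below 0. Nobox and Sohlh2 passed the test as lower beside Lhx8 itself, and Figla, Sohlh1 and Taf4b did not. Of its control mean, Nobox kept 9.53%, Sohlh2 51.8%, Figla 64.4%, Sohlh1 68.3% and Taf4b 70.2%.

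Nobox stood at 5.63, 27.4 and 13.6 CPM in Lhx8 knockouts, against 152.8, 183.6 and 152.8 CPM in controls. Its log2 fold change was -3.44 (SE 0.44, adjusted p = 0.000922). Unlike in Figla knockouts, a readable level remained, with 430 reads over the 3 knockout libraries, and it varied several-fold between them. A test between the fold changes of the 2 knockouts was not run, because the libraries were made with different kits.

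Sohlh2 stood at 8.23, 6.97 and 4.58 CPM in Lhx8 knockouts, against 10.1, 14.9 and 13.2 CPM in controls (log2 fold change -1.01, SE 0.26, adjusted p = 0.0357). The groups did not overlap, but the call was lost when any one of knockouts 2 or 3 or controls 1, 2 or 3 was left out (adjusted p = 0.0628, 0.0776, 0.059, 0.148 and 0.101). Leaving out knockout 1 kept it, at 0.0277.

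Figla, the helix-loop-helix factor deleted in the other set, stood at 66.1, 74.9 and 42.5 CPM in Lhx8 knockouts, against 76.3, 118.7 and 89.7 CPM in controls (log2 fold change -0.70, SE 0.21, adjusted p = 0.0632). Sohlh1 stood at 365.7, 755.4 and 483.5 CPM in Lhx8 knockouts and at 852.9, 842.8 and 654.7 CPM in controls (log2 fold change -0.61, SE 0.25, adjusted p = 0.141). Taf4b stood at 29.2, 44.8 and 39.1 CPM in knockouts and at 53.0, 54.9 and 53.2 CPM in controls (log2 fold change -0.57, SE 0.18, adjusted p = 0.0726). Sohlh1 was the only one of the 3 whose groups overlapped, through knockout 2. The 95% intervals of the log2 fold changes ran from -1.17 to -0.23 for Figla, from -1.15 to -0.06 for Sohlh1 and from -0.96 to -0.17 for Taf4b. Under DESeq2 Figla (adjusted p = 0.0195) and Taf4b (adjusted p = 0.0453) passed as well. Without knockout 2 all 3 passed, at 0.0423 for Figla, 0.0234 for Sohlh1 and 0.0465 for Taf4b.

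Tbpl2 was near the limit of detection in the Lhx8 set. No read was found in the 3 Lhx8 knockout libraries, and controls had 4, 2 and 3 reads. The knockouts were at least 2.89-fold lower by the same floor of 3 counts, a bound that came to 1.88 without knockout 1 or without knockout 2 because of the smaller depth. Tbpl2 did not pass the filter on low counts and was not tested there.

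Among the 6 members tested, 3 passed as lower in Lhx8 knockouts, where 7.29% of 15274 genes did; 3.06% passed as higher, 10.4% in either direction, and 27.8% had an unadjusted p under 0.05. Knockouts lay below controls without overlap for 5 of these 6, and for 15.5% of all genes tested. Lhx8's own fall is the deletion. Lhx8 knockout 2 was the highest of its group for Figla, Lhx8, Nobox, Sohlh1 and Taf4b, and had the highest sum of the 10 germ cell genes, 2289 CPM, against 1687 CPM in knockout 1 and 1594 CPM in knockout 3. In Lhx8 controls that sum ran from 1817 to 2221 CPM. The germ cell genes Ddx4 (-0.94) and Sycp3 (-0.96, both log2) passed as lower, 2 of 10, with a median of -0.28 over the list and 0.05 over all genes. Those 2 changes were larger in size than those of Figla, Sohlh1 and Taf4b, and their part in the members' values was not tested. Pregranulosa genes summed to 1478 to 1775 CPM in Lhx8 knockouts and 1166 to 1348 CPM in controls, with 1 of 7 tested called higher (Kitl, 0.88 on the log2 scale). Foxl2, a defining pregranulosa gene, was under 1 CPM in all libraries of this set. The Sertoli gene Sox9 (0.85, 1 of 4 tested) and the mesonephric gene Emx2 (0.55, 1 of 3 tested) also passed as higher. None of the steroidogenic, erythroid, macrophage or endothelial genes tested passed. The steroidogenic genes nevertheless summed to 51.6 to 58.8 CPM in Lhx8 knockouts and 38.0 to 44.3 CPM in controls, with a median log2 fold change of 0.69. The erythroid genes summed to 4691 to 12040 CPM in knockouts and 3829 to 5729 CPM in controls, with a median of 0.78. The endothelial genes summed to 407 to 475 CPM in knockouts and 384 to 412 CPM in controls, and Pecam1, Cdh5 and Tie1 were higher in each knockout than in each control. The part of these markers in the members' values was not tested.

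Before birth, at E18.5, Figla and Nobox were again far lower in Figla knockouts, but neither passed the adjusted test of 3 samples against 3. The values of the other members overlapped between genotypes. Nobox stood at 0.103, 0.0961, 0.311 and 0 CPM in knockout libraries 1 to 4, or 4 reads in all, against 75.7, 74.7, 2.15 and 110.5 CPM in control libraries. Its log2 fold change was -8.86 (SE 1.62, adjusted p = 0.411), and that of Figla was -3.91 (SE 0.71, adjusted p = 0.411). For both genes the lowest control library was still above the highest knockout library. With both samples numbered 3 left out, a choice made after seeing the data, the log2 fold change was -10.14 for Nobox (adjusted p = 0.0274) and -4.45 for Figla (adjusted p = 0.0446). With order of deposit as a block, also chosen after seeing the data, the call was likewise gained, at 0.00694 for Nobox and 0.0466 for Figla. Leaving out control 3 alone gave 0.00313 for Nobox and 0.00623 for Figla, and leaving out any other single sample gave no call. The lowest adjusted p over all alternatives was 1.08e-05 (Nobox) and 1.73e-06 (Figla), and the highest was 1 in both cases.

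Lhx8 stood at 18.1, 18.3, 6.52 and 44.7 CPM in E18.5 knockout libraries, against 102.6, 88.7, 6.45 and 120.9 CPM in control libraries. Sohlh1 stood at 36.3, 37.9, 9.48 and 67.9 CPM in knockout libraries, against 77.9, 77.7, 6.27 and 105.7 CPM in control libraries. For both, the lowest value of each genotype was that of the library numbered 3, and the control library numbered 3 was below every knockout library. Their log2 fold changes were -1.66 (SE 0.95) and -0.70 (SE 0.91), each with an adjusted p of 1. Without both samples numbered 3 they were -1.78 for Lhx8 and -0.79 for Sohlh1, with adjusted p of 0.536 and 1. Single samples moved these values by more: Lhx8 was at -2.53 without knockout 4 and -1.15 without control 4, and Sohlh1 at -1.39 without knockout 4 and -0.14 without control 4. Without control 3 Sohlh1 was at -1.23, and without knockout 3 at -0.25. The 95% intervals, -3.88 to 0.55 for Lhx8 and -2.81 to 1.41 for Sohlh1, hold the fold changes measured at P0.

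Sohlh2 stood at 18.8, 19.5, 26.4 and 20.1 CPM in E18.5 knockout libraries, against 35.3, 32.7, 22.8 and 36.4 CPM in control libraries. Its fold change was -0.47 on the log2 scale (SE 0.23) with all samples and -0.83 with both samples numbered 3 left out, with adjusted p of 1 and 0.464. Taf4b stood at 55.0, 56.4, 82.5 and 55.3 CPM in knockout libraries, against 79.7, 86.8, 99.4 and 77.3 CPM in control libraries (-0.38 on the log2 scale, SE 0.21, adjusted p = 1). Taf4b was at -0.52 without both samples numbered 3 (adjusted p = 0.955) and at -0.62 without knockout 3 alone. For Sohlh2 the overlap between genotypes came from the samples numbered 3. For Taf4b it came from knockout 3 alone, since control 3 was the highest control. Tbpl2 had 1 read in the 4 knockout libraries and 25 in the 4 control libraries, a ratio of 27.4 with a 95% counting interval of 4.49 to 1126. None of these reads came from a library numbered 3. The Tbpl2 value was a bound of 3.67 without knockout sample 1-2, which held that read, and a ratio of 14.7 without control 4.

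At E18.5, 0 of 6 members tested were called by edgeR, where 0.00620% of 16131 genes were, or 1 gene. At an unadjusted p under 0.05 edgeR had 607 genes, or 3.76%, among them Figla and Nobox and no other member. DESeq2 called both, and 78 genes in all. Knockouts lay below controls without overlap for 2 of the 6, and for 5.47% of all genes tested. Those 2 were Figla, whose fall is the deletion, and Nobox. Both had enough reads to be tested only through the controls. All 10 germ cell genes had fitted values below 0, with a median log2 fold change of -0.33 and 0 calls. They summed to 1225 to 1279 CPM in E18.5 knockouts and 1512 to 1917 CPM in controls, without overlap. The log2 fold changes of Sohlh2 (-0.47) and Taf4b (-0.38) lay within the range of the 10 genes, -0.68 to -0.23. Erythroid genes had a median log2 fold change of 1.58 with 0 of 6 called, and summed to 877 to 2834 CPM in E18.5 knockouts and 683 to 846 CPM in controls. The part of the germ cell and erythroid genes in the members' values was not tested.

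The 2 E18.5 samples numbered 3 separated the factors into those that were low there and those that were not. In knockout sample 3, Lhx8 and Sohlh1 were at 0.208 and 0.181 of the mean of the other knockout samples, while Sohlh2 and Taf4b were at 1.35 and 1.49 of it. In control sample 3, Nobox was at 0.0231, Lhx8 at 0.0595, Sohlh1 at 0.0683 and Figla at 0.159 of the mean of the other controls. Sohlh2 was at 0.646 there and Taf4b at 1.24, and Tbpl2 had no read. Lhx8 and Sohlh1 were low in both samples, Taf4b in neither. In control sample 3 the low values were not particular to the factors. Stat3 was at 0.315 of the other samples there. In knockout sample 3 Stat3 was at 0.325, and the Sertoli gene Sox9 was at 0.234 in knockouts and 0.417 in controls. The knockout ratios, and that of Sox9 in controls, rested in large part on a high sample among the others. The highest knockout sample had 407.7 CPM of Stat3 and 107.5 CPM of Sox9. The means of the knockout samples other than 3 were 252.8 and 61.75 CPM. For Sox9 in controls the highest was 43.3 CPM and that mean 30.5 CPM. In control sample 3, the reported targets Kit and Nlrp5 were at 0.147 and 0.00201, and the germ cell genes Sycp3 and Mael at 0.387 and 0.408, both further down than Sohlh2. These genes were picked after their values were seen. Over the 10 germ cell genes the median log2 ratio was 0.07 in knockout sample 3 (range -0.74 to 0.54) and -0.22 in control sample 3 (range -1.37 to 1.20). Control library 3 was also the shallowest of the series, and its title names a knockout, although its Figla level lay above all knockout libraries. The title of control library 4 names a knockout too, and that library was the highest control for Figla, Lhx8, Nobox and Sohlh1.

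**Figure D3:**
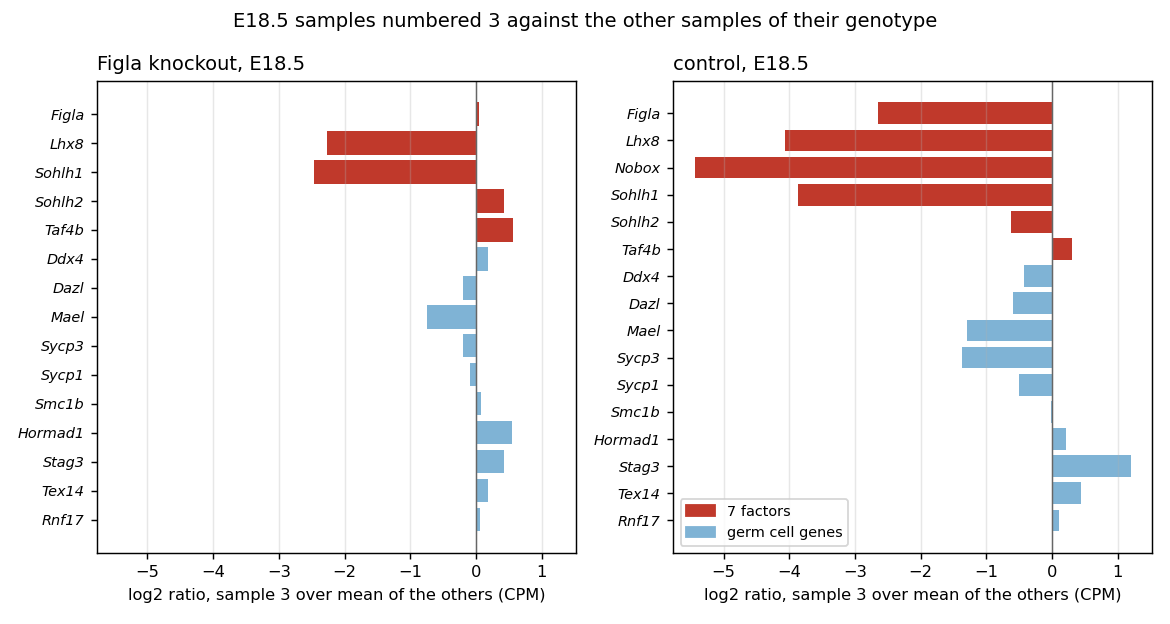
Log2 ratio of CPM in the E18.5 sample numbered 3 to the mean of the other samples of its genotype, Figla knockouts on the left and controls on the right, for the factors (red) and 10 germ cell genes (blue). Lhx8 and Sohlh1 were low in both, and Taf4b was not. Genes with a mean under 1 CPM in the other samples, or no read in the sample, are not drawn.

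Between E18.5 and P0, the control ovaries of the Figla set had fitted changes above 0 for all 7 factors, but none passed the test in the model of all Figla samples. The log2 fold changes, P0 over E18.5, were 2.12 for Tbpl2 (SE 0.72), 1.44 for Sohlh1 (SE 0.70), 1.43 for Nobox (SE 0.71), 1.23 for Lhx8 (SE 0.71), 1.06 for Figla (SE 0.46), 1.05 for Sohlh2 (SE 0.20) and 0.29 for Taf4b (SE 0.17). Without E18.5 control 3 the values were lower, at 0.91 for Sohlh1, 0.88 for Nobox, 0.70 for Lhx8 and 0.61 for Figla, and without E18.5 control 4 that of Tbpl2 was 3.22. The lowest adjusted p was 0.0606, for Sohlh2, which passed under DESeq2 (0.000204) and with each library as its own sample (0.0129). It also passed without E18.5 control 4 (0.029) or E18.5 knockout 1-2 (0.0449), and over its alternatives the adjusted p reached 0.251. For Sohlh2 every P0 control, at 53.0 CPM or more, was above every E18.5 control, at 36.4 CPM or less. In this comparison 0 of 18379 genes were called, while 4254 (23.1%) had an unadjusted p under 0.05 and DESeq2 called 1616.

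In Figla knockouts the age difference was above 0 for some factors and near 0 for others. Lhx8 (1.42, SE 0.74) and Sohlh1 (1.36, SE 0.71) had values above 0 on the log2 scale, without passing the test, and Lhx8 was at 2.26 without E18.5 knockout 4. Sohlh2 (0.13, SE 0.20) and Taf4b (-0.02, SE 0.17) were near 0, and the value of Taf4b turned to 0.21 without both samples numbered 3. Of all genes 0.00544% were called here, and 0 of the 7 members; 2319 genes (12.6%) had an unadjusted p under 0.05, and DESeq2 called 309. For Sohlh2 the change of the Figla effect between ages was -0.92 (SE 0.29, unadjusted p = 0.00678) and for Figla itself -2.59 (SE 0.93, unadjusted p = 0.0161), both with an adjusted p of 0.913. No member's fold change was shown to differ between E18.5 and P0. For Lhx8 the difference was 0.19 with an interval of -1.99 to 2.38, and for Taf4b -0.31 with an interval of -0.83 to 0.20. With edgeR 0 of 18379 genes passed as different between the ages, 977 (5.32%) had an unadjusted p under 0.05, and DESeq2 called 3.

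**Figure D4:**
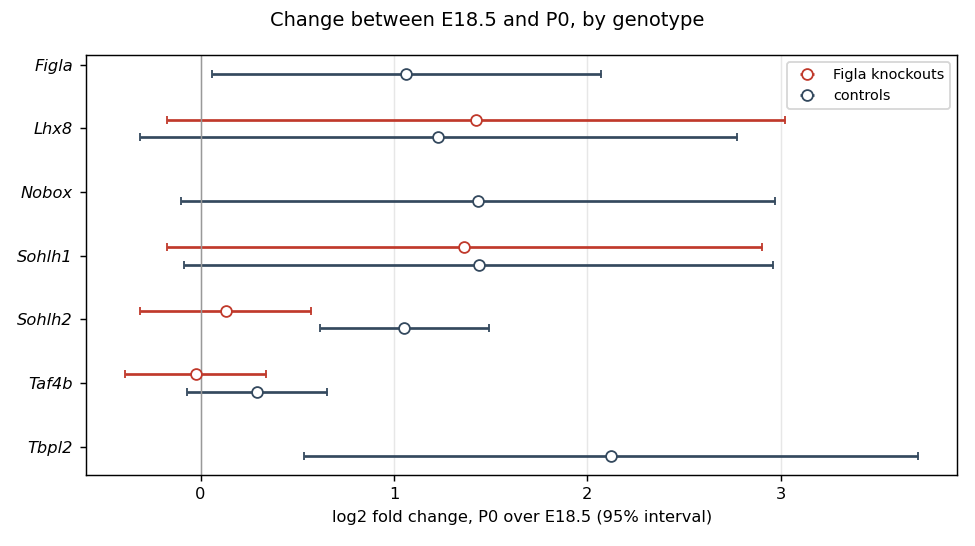
Log2 fold change from E18.5 to P0 in Figla knockouts (red, above) and controls (blue, below), with 95% intervals, for each factor. Figla, Nobox and Tbpl2 are not drawn for knockouts, where they had few or no reads. No interval belongs to a change that passed the adjusted test.

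Levels were compared between factors in TPM, which also divides by exonic length, and only in the Figla set, since the Lhx8 libraries read transcript ends. In Figla knockouts at P0 the order was Sohlh1 at 217 ± 31.8 TPM, Lhx8 at 69.5 ± 11.8, Taf4b at 35.1 ± 3.996, Sohlh2 at 28.7 ± 0.792, Figla at 1.33 ± 0.941, Nobox at 0.0893 ± 0.0780 and Tbpl2 at 0 TPM (SD, n = 3). In P0 controls it was Sohlh1 at 367.6 ± 64.6 TPM, Nobox at 232.8 ± 17.0, Lhx8 at 191 ± 35.7, Figla at 124 ± 12.9, Sohlh2 at 75.2 ± 13.8, Taf4b at 56.2 ± 7.75 and Tbpl2 at 7.33 ± 3.62 TPM (SD, n = 3). Sohlh1 was the most abundant factor in each of the 6 P0 libraries. Sohlh2 was below Taf4b in 3 of 3 knockouts and above it in 3 of 3 controls. In the controls the ranges of Nobox and Lhx8 overlapped, as did those of Sohlh2 and Taf4b. At E18.5 all neighbours in the order had overlapping ranges in controls except Sohlh2 and Tbpl2.

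As a share of the 7 factors' summed TPM, Sohlh1 made up 61.6% in P0 Figla knockouts (range 61.0% to 62.1%) and 34.8% in P0 controls (range 32.4% to 36.2%). Lhx8 took similar shares, 19.7% in knockouts (18.9% to 20.1%) and 18.1% in controls (16.5% to 19.1%). Nobox took 0.0235% in knockouts and 22.2% in controls. These shares moved in part because Nobox and Figla dropped out of the sum.

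Some factors followed each other closely across the 12 samples of the Figla set. On log2(CPM + 0.5), Figla and Nobox had a Pearson r of 0.98, Lhx8 and Sohlh1 of 0.96 and Sohlh2 and Tbpl2 of 0.95, while Sohlh1 and Taf4b had -0.03. These are descriptions over samples that share genotype, age and the samples numbered 3. Among 16932 genes with a mean of at least 1 CPM, those outside the 7 that were among the most like each factor were Prdm16 and Tcl1 for Figla (r of 0.98 each) and Pramef12, Gpr143 and D930020B18Rik for Nobox (1.00, 0.99 and 0.99). They were Map3k9, 1700067K01Rik and Piwil2 for Lhx8 (0.98 each), and Uchl1, Gm364 and Mageb4 for Sohlh1 (0.99, 0.99 and 0.98). They were Asb8, Rnf114 and Med17 for Sohlh2 (0.99, 0.98 and 0.98), Tcf24, Ago4 and Cenpw for Taf4b (0.94, 0.94 and 0.93), and Zp3, H1foo and Oas1h for Tbpl2 (1.00 each). Among these, Piwil2 encodes a piRNA-binding protein of germ cells, and Zp3 and H1foo encode a zona pellucida protein and the oocyte linker histone. The likeness was lowest for Taf4b.

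Genes that work with the 7 factors were read from short lists. Forced expression of Figla, Lhx8, Nobox, Sohlh1 and Tbpl2 together with Stat3, Dynll1 and Sub1 is known to turn mouse pluripotent cells into oocyte-like cells. Stat3, a signal-activated transcription factor, stood at 142.1, 97.0 and 114.9 CPM in P0 Figla knockouts, against 380.8, 353.0 and 485.5 CPM in controls (-1.80 on the log2 scale, SE 0.17, adjusted p = 7.64e-05). It stood at 96.8, 118.9 and 108.3 CPM in Lhx8 knockouts, against 265.5, 331.2 and 290.6 CPM in controls (-1.51 on the log2 scale, SE 0.15, adjusted p = 0.000186). Stat3 therefore fell in both knockouts at P0, with no overlap of groups. In E18.5 ovaries Stat3 had 410.0, 405.6, 82.2 and 98.0 CPM in knockout libraries, against 348.5, 336.7, 91.9 and 239.8 CPM in control libraries, and the groups overlapped. Dynll1, a dynein light chain, passed as lower in both knockouts at P0 (-0.68 in Figla and -0.58 in Lhx8 knockouts, adjusted p of 0.0263 and 0.0302). Sub1, a transcription cofactor, did not pass in either (-0.33 and -0.77, adjusted p of 0.0748 and 0.085).

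Of 9 core promoter factors related to Taf4b and Tbpl2, 8 were tested at P0. In Figla knockouts 1 of the 8 passed as lower, the TFIID subunit Taf3 (-0.48, adjusted p = 0.0213), where 10.9% of all genes tested did. There 0 passed as higher, with a list median of -0.17 against 0.02 over all genes. In Lhx8 knockouts 1 of the 8 passed as lower, the TFIIA subunit Gtf2a1 (-0.45, adjusted p = 0.0478), where 7.29% of all genes tested did. There 0 passed as higher, with a list median of 0.07 against 0.05 over all genes. Tbp and Taf4, the widely expressed relatives of Tbpl2 and Taf4b, did not pass in either knockout (Tbp -0.20 in Figla and -0.22 in Lhx8 knockouts, Taf4 -0.33 and 0.17). The 95% interval of Tbp ran from -0.52 to 0.11 in Figla knockouts and from -0.67 to 0.23 in Lhx8 knockouts.

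Of the 3 E proteins that can pair with helix-loop-helix factors, Tcf3, Tcf4 and Tcf12, none passed in either knockout at P0, with log2 fold changes between -0.32 and 0.27. The adaptor gene Ldb2 passed as higher in both (0.67 in Figla and 0.65 in Lhx8 knockouts, adjusted p of 0.0171 and 0.0192). Of all genes tested, 5.12% and 3.06% passed as higher in these comparisons, in the same order. Ldb1, the adaptor of LIM homeodomain proteins, stood at 14.4, 8.22 and 6.63 CPM in Lhx8 knockouts, against 3.71, 4.78 and 4.003 CPM in controls (1.15, adjusted p = 0.0439), and did not pass in Figla knockouts (0.30, adjusted p = 0.056). In the Lhx8 set the Ldb1 value rested on few reads, 272 in knockouts and 119 in controls. The mean of Ldb1 was 210.6 CPM in P0 controls of the Figla set, which was made with another kit. The Ldb genes are also active outside the oocyte, and a share from other cells was not tested.

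**Figure D5:**
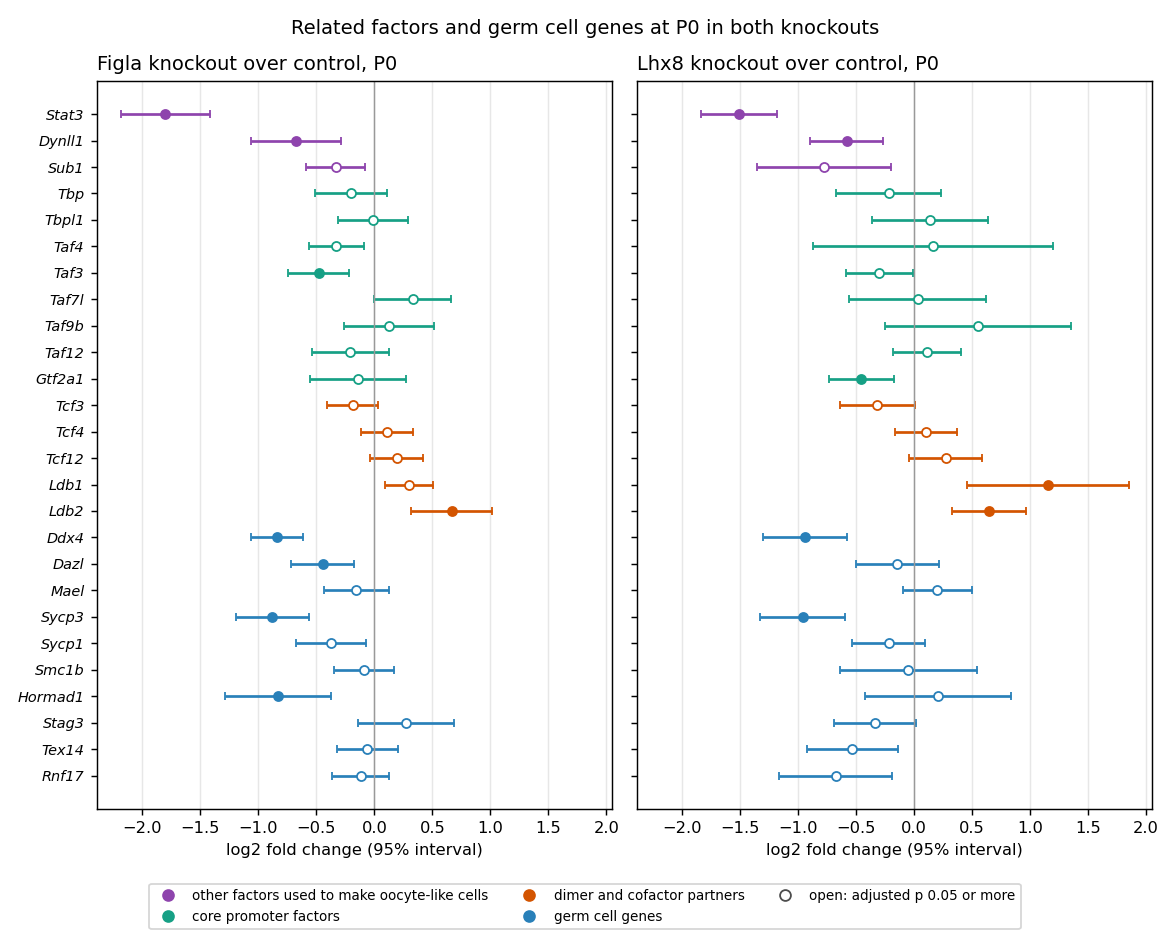
Log2 fold changes with 95% intervals at P0, Figla knockout over control on the left and Lhx8 knockout over control on the right, for 3 other factors used to make oocyte-like cells, core promoter factors, dimer and cofactor partners, and 10 germ cell genes. Filled points passed an adjusted p of 0.05. Stat3 had the lowest fold change in both panels.

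A list of 20 genes reported as targets of these factors was followed as a sum, since most could be tested only through their reads in controls, and a tally of calls over them would be nearly fixed by that. The 20 targets summed to 97.2 to 144.1 CPM in P0 Figla knockouts and to 1281 to 2751 CPM in controls. No read of the zona pellucida genes Zp1, Zp2 and Zp3 was found in P0 Figla knockouts, against 591, 3503 and 992 reads in controls, so they were at least 184.5-fold, 1094-fold and 309.7-fold lower. Nlrp5, of the subcortical maternal complex, had 9 reads in knockouts and 9557 in controls. The list was chosen with earlier results of these data known and is not independent evidence of its direction.

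In the Lhx8 set the 20 targets summed to 73.4 to 167.5 CPM in knockouts and to 1140.0 to 1444 CPM in controls. Zp1 had no read in knockouts, against 222 reads in controls, which is at least 71.2-fold lower. Zp3 had 6 reads in knockouts and 1233 in controls, and Padi6, an oocyte lattice protein, had 27 reads in knockouts and 5040 in controls. H1foo, the oocyte linker histone, had 10 reads in knockouts and 476 in controls. At E18.5, 6 of the 20 targets were tested and 0 passed. The 20 targets summed to between 99.8 and 119.7 CPM in E18.5 Figla knockout samples and between 128 and 1119 CPM in E18.5 control samples. The lowest control sum was that of sample 3, where Kit had 69.3 CPM, against a mean of 470.4 CPM in the other controls.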

How the data were processed

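Whole-ovary RNA was counted per gene in 20 libraries. The deposited counts are raw read counts made by the authors with featureCounts 1.6.0 on GENCODE M12 (GRCm38.p5) with strand ignored, per the file headers and the submitters' processing notes. Those notes also name cutadapt and HISAT2, without versions. The Figla libraries were made with Nextera and the Lhx8 libraries with QuantSeq, per the labels' protocols, so the sets were fitted apart. Each comparison used edgeR 4.0.16 (R 4.3.3) on all genes kept by filterByExpr (minimum count 10, total 15), with TMM scaling, the quasi-likelihood test and Benjamini-Hochberg adjustment at 0.05; DESeq2 1.42.0 was an alternative. The fit was tested on simulated data.

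Libraries were grouped by library name, with which titles and genotype fields disagreed for 12 of 20. E18.5 libraries 1 and 2 of each genotype differed far less than other pairs (chi-square per degree of freedom 1.32 in knockouts and 1.12 in controls, against 6.62 to 62.3 in 22 other pairs) and were summed. Whether replicates are separate animals is not stated, so each p-value reflects only sample-to-sample spread, possibly technical. Intervals and floors from counts cover counting error only. The members and gene lists were chosen with earlier results of these data known. All 7 members were named, with at most 4 called genes from other lists by fold change, all genes of the 3 lists of related factors where useful, and the 3 most correlated genes per member, of which 1 is not reported here. Alternatives were other scaling, no filter, a left-out sample, libraries with agreeing labels, 1 model, blocks and unsummed libraries.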

Additional observations from a re-analysis of the deposited data

How the results depend on the processing

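Of 538 alternative values for 38 combinations of a member and a comparison, 484 kept their direction and side of the threshold, 8 lost the call, 34 gained one and 12 changed sign. At E18.5, 1 gene was called; it was 78 under DESeq2, 229 with no filter, 34 with all libraries kept separate, 53 in 1 model, 28 with order of deposit as a block and 18 without both samples numbered 3, with 2 members called in each of these, against 0. The deposit block and the fit without the samples numbered 3 were chosen after seeing the data. Leaving out 1 sample gave 0 to 89 genes and 0 to 2 members, the highest without control 3. At P0 in the Figla set 2767 genes were called, 1363 in 1 model, 1835 with agreeing labels and 1423 to 2882 with 1 sample left out, and 7 members in each left-out fit. Without knockout 2 it was 1605 genes and without knockout 3 1423. In Lhx8 knockouts 1582 genes were called, 2682 with no filter and 630 to 1490 with 1 sample left out (733, 630 and 911 without control 1, 2 and 3); the 3 members called were 5 under DESeq2, 6 with no filter and 2 to 5 with 1 sample left out. The replicate numbers of the Lhx8 set did not pair the samples (correlations of deviations -0.15, 0.05 and 0.04), and the replicate block gave 931 genes and 2 members, Sohlh2 having an adjusted p of 0.0784. Numbers of the Figla set follow deposit order and were not used to pair.

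For the difference between ages, DESeq2 called 3 genes and no filter 63, against 0. For age in controls, DESeq2 called 1616 genes and 1 member, no filter 1252 and 6, all libraries kept separate 1490 and 1, and left-out fits 0 to 556 genes and 0 to 1 members, against 0 of each. For age in Figla knockouts 1 gene was called, 309 under DESeq2, 0 under RLE scaling, 530 with no filter (with 2 members), 16 with all libraries kept separate, 0 without both samples numbered 3 and 0 to 150 with 1 sample left out. The cause of these shifts was not tested.

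Signs changed only for values near 0. The Lhx8 difference between ages (0.19) was -0.03 without E18.5 control 1-2, -0.32 without control 4 and -0.22 without knockout 3, with left-out values up to 1.03. That of Sohlh1 (-0.07) was 0.45 without E18.5 control 3, 0.59 without knockout 4, 0.08 without P0 control 3 (lowest left-out value -0.63), 0.036 with all libraries kept separate and 0.0097 without both samples numbered 3. The Taf4b age change in knockouts (-0.02) was 0.21 without E18.5 knockout 3 (lowest left-out value -0.13) and without both samples numbered 3, 0.01 without P0 knockout 2 and 0.042 with all libraries kept separate. Depth limits Tbpl2 most, with 9 reads in Lhx8 controls.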
